A study of Mus musculus with 61 samples.

Results

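Naive CD4 T cells of C57BL/6 mice were followed in their first day of culture with antibodies, and the arrays of the later hours (14 to 20 h) were set against those of the early hours (4 to 8 h). The comparison takes 9 of the 61 arrays of the series, all of the control arm (ctrl) on the HT_MG-430A array type. The group at 14-20 h holds 6 arrays at 4 times, titled 14, 16, 16d, 18, 20 and 20d. The group at 4-8 h holds 3 arrays at 2 times, titled 4, 8 and 8d. The control array at 12 h was left out by the rule that defines the comparison. Of all 61 arrays, 52 are HT_MG-430A and 9 are Mouse430A_2, and the other arm (IL27) received IL-27, a cytokine related to IL-12. By its title the series asks which regulators of IL-10 act downstream of IL-27. All groups share the antibody to CD3 at 1 µg/ml and a second antibody at 1 µg/ml, which the protocol writes as one to CD8. The same protocol, with IL-27 at 25 ng/ml, and sample source are attached to every array, so the arm was read from the title. The labels give times as bare numbers, and hours are assumed. Neither the sex and age of the mice, nor the purity of the cells, nor the meaning of the suffix d is given in the sources used here. Nothing in the labels says that arrays came from separate cultures, so p-values measure only how far these arrays vary, possibly for technical reasons.

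A resting T cell is small, keeps its genome unreplicated and uses little fuel. Signals through its antigen receptor first switch on immediate early genes and cytokine genes, which peak within hours. The cell then grows, enlarges its mitochondrial and biosynthetic capacity, passes the restriction point of G1 when E2F factors are released, and copies its DNA. Interferon made in a stimulated culture acts back on the cells through STAT proteins, and receptors of the resting state, such as that for IL-7, go down.

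Values are array intensities on a linear scale. Differences are on the scale log2(intensity + 32), as 14-20 h minus 4-8 h, with the standard error (SE), and understate the change of dim genes. Adjusted p-values are from limma, corrected by Benjamini-Hochberg over the 6647 genes tested, and a gene was called below 0.05. The medians of the 9 arrays lay between 31.4 and 32.6. Across these genes the 6 arrays at 14-20 h correlated with each other at 0.9649 or more, and the 3 at 4-8 h at 0.9291 or more. The highest correlation between the windows was 0.9828, above the lowest correlation among the 3 early arrays. The control array at 12 h correlated at no more than 0.8498 with any other, while every other array had a partner at 0.9772 or more.

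Of the 6647 genes tested, 2617 were called (39.4%), 1583 higher at 14-20 h (23.8%) and 1034 lower (15.6%). A difference of 2-fold or more was reached by 268 of the higher and 210 of the lower. The 6 late arrays lay entirely above the 3 early ones for 1417 genes (21.3%) and entirely below them for 849 (12.8%). The median difference over all genes tested was 0.06. In 2215 of the 2617 called genes, the step between 4 h and 8 h and the step between 8 h and 14-20 h ran in the direction of the difference. Without the 4 h array the count was 1907, and without the first 8 h array 3226. With neither 16 h array it was 1229, and with the 3 arrays of suffix d left out, which leaves 4 against 2, it was 97 (53 higher, 44 lower). In that smaller fit 2 of 44 replication genes and 3 of 30 interferon genes were called. Calls below are those of all 9 arrays.

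**Figure D1:**
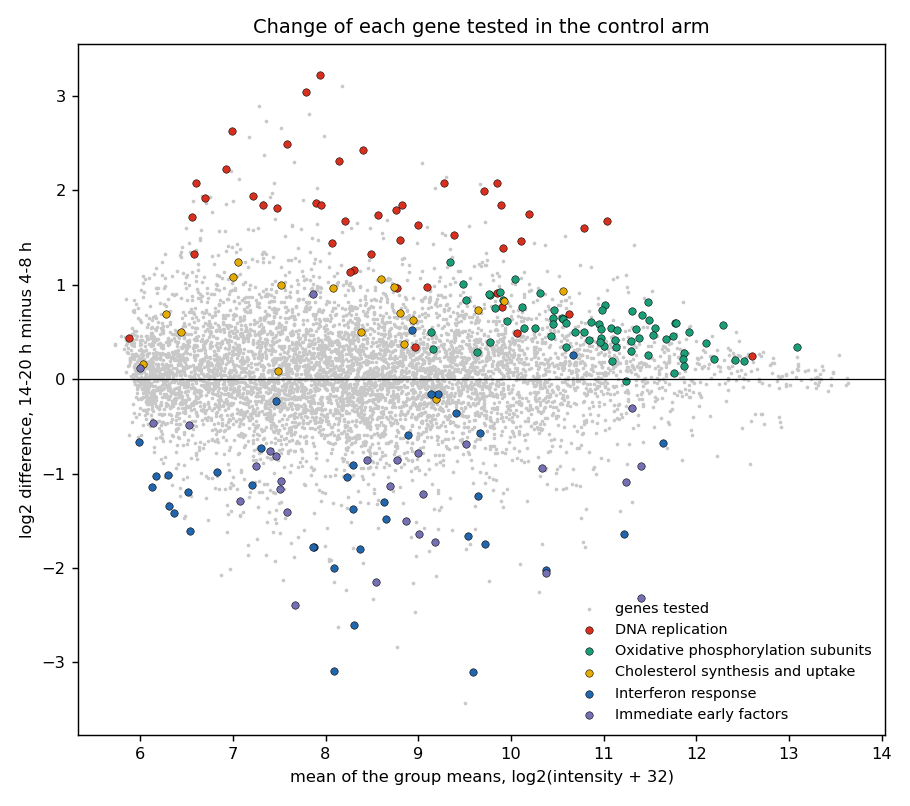
Each point is 1 of the 6647 genes tested in the control arm; the horizontal axis is its mean level on log2(intensity + 32) and the vertical axis its log2 difference, 14-20 h minus 4-8 h. Members of 5 lists are coloured: DNA replication genes lie above 0 (median 1.72), interferon response genes mostly below it (median -1.19).

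The genes that build and fire replication forks rose together. Of 49 listed replication genes, 45 were measured, all 45 passed the filter on dim genes, and 42 rose and 0 fell, with a median difference of 1.72. In 41 of the 45 the late arrays lay wholly above the early ones. Rrm2, the small subunit of ribonucleotide reductase, which makes deoxynucleotides, read 209 to 2466 at 14-20 h (median 488), against 28.9 at 4 h and 55.9 and 28.1 at 8 h. Its difference was 3.22 ± 0.57 (adjusted p = 0.00238), the largest of all called genes, and its lowest late array was above its highest early array. Hells, a chromatin remodeller of the replicating genome, read 426 to 1382 (median 818) at 14-20 h, against 49.7 at 4 h and 94.9 and 51.1 at 8 h (3.11 ± 0.30, adjusted p = 0.000411). Uhrf1, which carries DNA methylation over to the new strand, read 191 to 1189 (median 521) at 14-20 h, against 37.2 at 4 h and 52.9 and 29.4 at 8 h (3.05 ± 0.44, adjusted p = 0.00118). The groups of both genes were apart, and their late arrays were spread widely. Hells was named for the size of its difference and is not a member of the replication list.

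The licensing factors followed. Cdc6, which loads the replicative helicase, read 49.6 to 803 (median 266) at 14-20 h, against 9.67 at 4 h and 15.6 and 15.2 at 8 h (2.63 ± 0.54, adjusted p = 0.00472). Gmnn, geminin, which blocks a further round of loading, read 226 to 980 (median 564) at 14-20 h, against 36.7 at 4 h and 82.6 and 34.8 at 8 h (2.81 ± 0.35, adjusted p = 0.000709). The helicase subunit Mcm6 was bright already at 4-8 h, with 1908 to 3876 (median 3095) at 14-20 h, against 947 at 4 h and 1039 and 928 at 8 h (1.61 ± 0.19, adjusted p = 0.000558). For these 3 genes every late array lay above all early ones. Mcm3 rose by 2.08 ± 0.26, Mcm4 by 1.84 ± 0.24 and Mcm7 by 1.68 ± 0.21. The catalytic polymerase subunit Pold1 rose by 1.74 ± 0.23, Gins1 of the fork helicase by 2.49 ± 0.32 and the clamp loader subunit Rfc4 by 2.43 ± 0.33. Chek1, the checkpoint kinase, rose by 2.66 ± 0.26, Dtl, which targets the licensing factor Cdt1 for destruction, by 2.57 ± 0.31, and Fignl1, a recombination factor, by 2.73 ± 0.29. Other probe sets of these last genes gave smaller differences, down to -0.02 for Chek1, 0.57 for Dtl and -0.01 for Fignl1. Chek1, Dtl, Fignl1 and Gmnn, like Hells, were named for the size of their differences and are outside the replication list. The 3 replication genes that were not called were Pold2 (0.49), Orc2 (0.35) and Pcna (0.24), the sliding clamp. Without any 1 of the early arrays, 40 to 42 of the 45 replication genes were called higher. The step of the list fell almost wholly after 8 h, with a median of 0.21 between 4 h and 8 h and 1.62 between 8 h and 14-20 h.

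Promoters of replication genes are the classic sites of E2F, whose release from the retinoblastoma protein opens S phase, while many mitotic genes carry a cell cycle homology region beside CCAAT boxes bound by NF-Y. Promoter windows (250 bases before to 50 after each annotated start, RefSeq, GRCm38.p6) were searched on both strands for 10 motifs, and those windows are given here because the genes of both lists moved together. Any of 4 E2F forms (TTTGGCGC, TTTCCCGC, TTTCGCGC, TTTGGCGG) stood in 16 of the 38 replication genes with a window (42.1%), against 5.98% of 5516 tested genes and 2.70% of all 27025 genes with a window. The letters TTTGAA stood in 22 of 31 mitotic genes (71.0%), against 13.7% of tested and 20.2% of all genes. CCAAT stood in 23 of 31 mitotic genes (74.2%), 24 of 38 replication genes (63.2%) and 15 of 15 cholesterol genes (100%), against 43.2% of tested and 41.1% of all genes. The GC box CCGCCC, named for KLF factors, stood in 24 of 31 mitotic (77.4%), 28 of 38 replication (73.7%) and 14 of 15 cholesterol genes (93.3%), against 72.4% of tested genes. The sterol element TCACNCCAC stood in 1 of 15 cholesterol genes (6.67%), against 1.31% of tested genes. The E-box CACGTG stood in 6 of 38 replication genes (15.8%), 1 of 31 mitotic genes (3.23%) and 3 of 15 cholesterol genes (20.0%), against 13.2%. The ATF4 element TGATGNAA stood in 2, 1 and 1 of them, against 2.45% of tested genes. A gene with several start sites had several windows, 1.24 per replication gene, 1.03 per mitotic gene and 1.29 per tested gene. Windows of 3 genes follow, with the E2F letters of either strand in capitals. They are Hells (chr19:38930740-38931039, plus strand), Cdc6 (chr11:98907901-98908200, plus strand) and Mcm6 (chr1:128359656-128359955, minus strand). Hells is outside the replication list, so its window is not among those of the 38 genes. In Mcm6 a TTTGGCGC and a TTTCGCGC of the opposite strand overlap in the first capital run.
Hells: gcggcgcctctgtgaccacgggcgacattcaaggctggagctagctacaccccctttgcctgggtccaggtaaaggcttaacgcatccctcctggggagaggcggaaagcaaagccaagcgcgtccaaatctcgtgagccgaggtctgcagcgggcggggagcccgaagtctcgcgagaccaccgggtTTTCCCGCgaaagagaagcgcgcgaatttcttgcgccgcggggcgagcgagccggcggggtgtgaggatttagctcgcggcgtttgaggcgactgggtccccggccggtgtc
Cdc6: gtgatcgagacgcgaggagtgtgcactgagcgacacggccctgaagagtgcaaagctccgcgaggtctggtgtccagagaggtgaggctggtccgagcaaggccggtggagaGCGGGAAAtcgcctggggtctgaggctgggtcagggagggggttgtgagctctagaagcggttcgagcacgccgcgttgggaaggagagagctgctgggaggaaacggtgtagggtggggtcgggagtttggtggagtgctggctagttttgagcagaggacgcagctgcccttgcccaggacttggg
Mcm6: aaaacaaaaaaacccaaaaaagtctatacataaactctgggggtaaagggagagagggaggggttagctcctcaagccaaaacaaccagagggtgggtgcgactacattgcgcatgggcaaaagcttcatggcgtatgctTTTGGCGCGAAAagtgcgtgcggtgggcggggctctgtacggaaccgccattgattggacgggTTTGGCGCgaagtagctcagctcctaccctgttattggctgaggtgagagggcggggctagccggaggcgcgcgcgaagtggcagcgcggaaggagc

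The windows of Cdk1 (chr10:69352863-69353162, minus strand) and Cdc20 (chr4:118437294-118437593, minus strand), both mitotic, are shown with TTTGAA in capitals, which stands at 2 places in the first and 1 in the second. That of Hmgcs1 (chr13:119690101-119690400, plus strand), an enzyme of cholesterol synthesis, is shown with CCAAT in capitals, here 4 times as ATTGG, its form on the opposite strand. A match is a run of letters and was not tested as a binding site.
Cdk1: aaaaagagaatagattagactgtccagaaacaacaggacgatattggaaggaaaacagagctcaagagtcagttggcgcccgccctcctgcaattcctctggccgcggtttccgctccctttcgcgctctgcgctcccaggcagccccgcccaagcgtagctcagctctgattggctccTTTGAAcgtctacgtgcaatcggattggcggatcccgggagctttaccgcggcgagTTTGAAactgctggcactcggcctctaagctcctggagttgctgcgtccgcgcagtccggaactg
Cdc20: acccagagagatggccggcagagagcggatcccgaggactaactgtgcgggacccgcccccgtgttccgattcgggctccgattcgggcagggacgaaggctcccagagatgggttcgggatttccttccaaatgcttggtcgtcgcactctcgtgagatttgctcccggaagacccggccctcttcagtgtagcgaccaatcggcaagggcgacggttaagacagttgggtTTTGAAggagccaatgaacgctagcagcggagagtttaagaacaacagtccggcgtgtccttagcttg
Hmgcs1: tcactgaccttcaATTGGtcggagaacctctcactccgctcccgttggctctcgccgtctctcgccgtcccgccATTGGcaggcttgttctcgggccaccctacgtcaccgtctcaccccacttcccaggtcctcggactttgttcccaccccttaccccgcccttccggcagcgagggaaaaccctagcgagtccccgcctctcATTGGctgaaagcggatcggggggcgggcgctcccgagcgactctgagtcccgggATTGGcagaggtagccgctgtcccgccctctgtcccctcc

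Mitotic genes rose as well. Of 49 listed genes for mitosis and chromosome segregation, 47 were measured, 37 passed the filter, and 23 of them rose and 0 fell, with a median of 1.08. Without the 4 h array 15 were called, without the second 8 h array 13, and without the filter 19 of 47. Cdk1, the kinase that drives entry into mitosis, read 102 to 1158 (median 341) at 14-20 h, against 16.4 at 4 h and 22.4 and 19.3 at 8 h (2.89 ± 0.50, adjusted p = 0.00224). Top2a, which untangles sister DNA, read 116 to 934 (median 272) at 14-20 h, against 28.0 at 4 h and 42.5 and 28.4 at 8 h (2.38 ± 0.44, adjusted p = 0.00311). Cdc20, an activator of the anaphase-promoting complex, read 256 to 512 (median 360) at 14-20 h, against 98.9 at 4 h and 167 and 131 at 8 h (1.34 ± 0.20, adjusted p = 0.00142). In all 3 genes the late arrays were apart from the early ones. Mad2l1 of the spindle checkpoint rose by 2.02 ± 0.33 and the kinase Aurka by 1.10 ± 0.19, although Aurka was dim at 54.0 to 143 against 16.1, 29.1 and 23.0.

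Of the 25 G1 cyclins, kinases and inhibitors tested, of 30 measured, 9 rose (36%) and 4 fell (16%), against 23.8% and 15.6% over all genes. Ccne1, cyclin E1, which starts S phase, read 57.1 to 299 (median 110) at 14-20 h, against 16.5 at 4 h and 26.8 and 33.3 at 8 h (1.47 ± 0.32, adjusted p = 0.00635). E2f1 rose by 0.87 ± 0.21, its partner Tfdp1 by 0.57 ± 0.15, Cdk2 by 0.82 ± 0.22, Ccnd3 by 0.76 ± 0.20, and Skp2, Cks1b and Cks2, which serve the ubiquitin ligase and the kinases of this phase, by 1.11 ± 0.21, 0.87 ± 0.23 and 1.09 ± 0.17. Cdkn1a, the inhibitor p21, read 91.3 to 726 (median 222) at 14-20 h, against 1128 at 4 h and 1083 and 980 at 8 h (-2.08 ± 0.45, adjusted p = 0.00614). Its early arrays were alike and all above the later ones, whose own spread was wide. Cdkn1b, the inhibitor p27, fell by 0.85 ± 0.25 in the fit, with 79.9 to 120 (median 95.4) at 14-20 h, against 376 at 4 h and 120 and 165 at 8 h. Ccnd2 fell by 0.40 ± 0.07 and Myc by 0.59 ± 0.15, both still bright, with Myc at 2607 to 3782 against 6180, 4380 and 3966. Cdk4 (0.22 ± 0.15, adjusted p = 0.266), a kinase of early G1, did not pass the test.

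**Figure D2:**
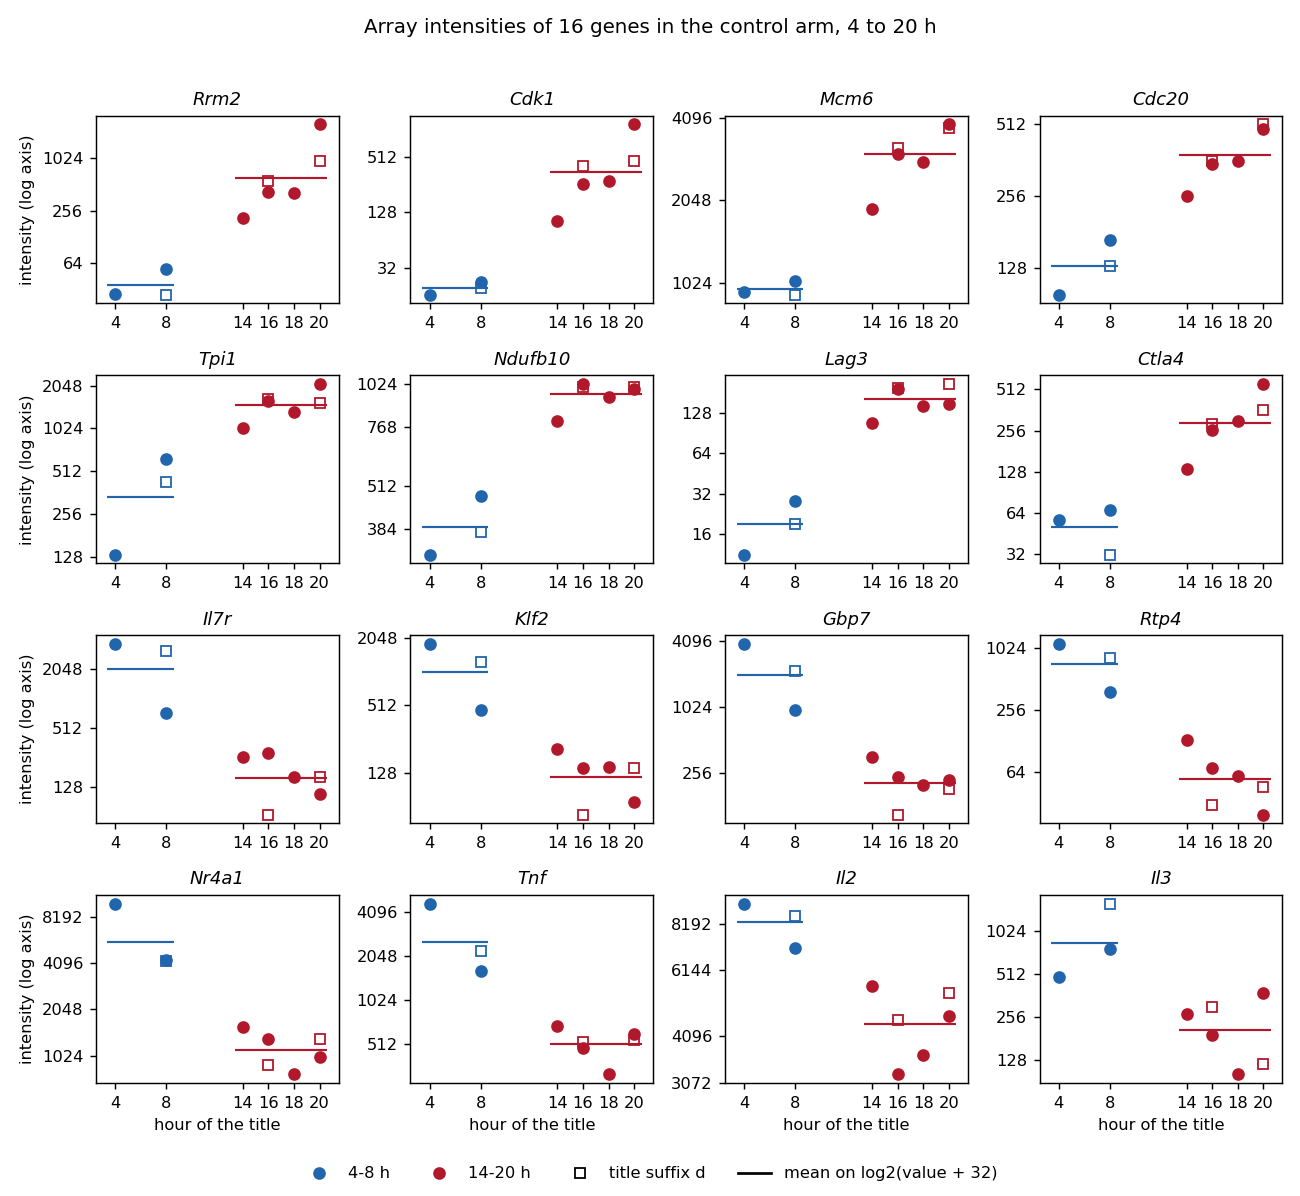
Intensity on a log axis against the hour of the title for 16 genes in the control arm, 3 arrays at 4-8 h in blue and 6 at 14-20 h in red, open squares for titles with the suffix d, lines for group means. Rrm2, Cdk1, Mcm6 and Cdc20 are high at 14-20 h and low at 4-8 h; in Il7r, Klf2, Gbp7 and Rtp4 the second 8 h array lies between the 4 h array and the first 8 h array.

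Within the later window no gene was called. Arrays at 18-20 h were set against those at 14-16 h (3 each), and limma called 0 of 6511 genes (0%), with 347 at an unadjusted p under 0.05 and a lowest adjusted p of 0.616. Under all 14 other settings and omissions the count was also 0. All 37 mitotic genes had a positive difference, with a median of 0.75, and 43 of 45 replication genes, with a median of 0.45, where 3094 of the 6511 genes tested did and the median was -0.01. Cdk1 read 277, 1158 and 459 at 18 h and 20 h, against 102, 257 and 404 at 14 h and 16 h, a difference of 1.14 ± 0.55 (adjusted p = 0.841). Its groups overlapped, with 1 array at 20 h far above the others. The interferon-regulated factor Irf1 had the lowest p, at 1074, 1129 and 1014 for 18-20 h, against 699, 616 and 731 for 14-16 h (0.63 ± 0.09, adjusted p = 0.616), and its arrays did not overlap.

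Mitochondrial genes rose broadly. Of 71 mitochondrial ribosomal proteins measured, all tested, 47 rose and 0 fell (median 0.62). Of 69 subunits of the respiratory chain and ATP synthase, all tested, 51 rose and 0 fell (median 0.53). Of 21 genes of the TCA cycle and mitochondrial one-carbon metabolism, 15 rose and 0 fell (median 0.37). Without the 4 h array 31 of the 71 ribosomal proteins and 42 of the 69 subunits were called higher, and without the second 16 h array 30 of the 71. The median step between 4 h and 8 h was 0.78 for mitochondrial ribosomal proteins and 0.62 for the subunits, and that between 8 h and 14-20 h 0.32 and 0.27. The 4 h end of the first step is 1 array.

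Ndufb10, a complex I subunit, read 797 to 1027 (median 1000.2) at 14-20 h, against 322 at 4 h and 481 and 377 at 8 h (1.24 ± 0.13, adjusted p = 0.000441). Mrpl45, of the large mitochondrial ribosomal subunit, read 1116 to 1361 (median 1267) at 14-20 h, against 374 at 4 h and 786 and 600 at 8 h (1.10 ± 0.18, adjusted p = 0.00203). Both genes had a tight late group, and their 4 h array was the lowest of the 9. Mrpl14 rose by 1.09 ± 0.17, Mrpl18 by 1.07 ± 0.19, Sdhd of complex II by 0.93 ± 0.17, Ndufv1 and Ndufa9 of complex I by 0.84 ± 0.14 and 0.75 ± 0.13. In the TCA cycle, Idh2 rose by 1.02 ± 0.23 and Suclg1 by 0.83 ± 0.14.

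Glycolytic genes rose in part. Of 17 genes tested, 9 rose and 0 fell (median 0.33). Tpi1, triosephosphate isomerase, read 1027 to 2098 (median 1558) at 14-20 h, against 132 at 4 h and 619 and 426 at 8 h (2.07 ± 0.36, adjusted p = 0.00224). Its values stand in 3 tiers, lowest at 4 h, middle at 8 h and highest later. Eno3 rose by 1.63 ± 0.33, Pfkp by 0.56 ± 0.10, Pfkm by 0.65 ± 0.12 and Aldoa by 0.37 ± 0.08. The first enzyme of the path, Hk2, read 827 to 1107 (median 1057), against 452 at 4 h and 1068 and 1231 at 8 h (0.24 ± 0.25, adjusted p = 0.456), and its only low array was that at 4 h.

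Lipid and building-block synthesis rose in part. Of 18 genes of cholesterol synthesis and uptake, all tested, 14 rose and 0 fell (median 0.72), and the list stepped up after 8 h (0.14 before, 0.72 after). Dhcr7, which makes cholesterol in the last step of its path, read 124 to 218 (median 172) at 14-20 h, against 35.4 at 4 h and 68.7 and 59.2 at 8 h (1.24 ± 0.17, adjusted p = 0.000927). Fdft1, squalene synthase, read 426 to 668 (median 528), against 219 at 4 h and 252 and 234 at 8 h (1.06 ± 0.14, adjusted p = 0.000927). Both were apart between the windows, and Lss (0.96 ± 0.17), Nsdhl (0.99 ± 0.22), Pmvk (1.09 ± 0.19) and Hmgcs1 (0.93 ± 0.19) rose alike. The 4 that were not called lay between -0.21 (Srebf2) and 0.37 (Sqle). Of 21 genes of nucleotide synthesis 8 rose (38.1%) and 2 fell (9.52%), against 23.8% and 15.6% over all genes. Without the 4 h array 6 were called higher, without the second 8 h array 6 and without the first 12. Among the called genes, the thymidylate kinase Dtymk (1.12 ± 0.24), Prps2 (1.01 ± 0.23) and Paics (0.86 ± 0.16) rose and Impdh1 (-0.60 ± 0.12) fell.

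The ATF4 list of amino acid supply held genes of either direction. Of 16 genes tested, of 24 measured, 3 rose (18.8%) and 6 fell (37.5%), against 23.8% and 15.6% over all genes. The median was -0.07. The serine-synthesis enzyme Phgdh read 1583 to 2341 (median 2089) at 14-20 h, against 389 at 4 h and 1254 and 794 at 8 h (1.42 ± 0.27, adjusted p = 0.00331), and Psph of the same path rose by 1.33 ± 0.25. The amino acid transporter subunits Slc3a2 (-0.77 ± 0.14), Slc1a5 (-0.74 ± 0.11) and Slc7a5 (-0.48 ± 0.09) fell, as did Atf4 itself (-0.40 ± 0.09). Slc1a5 read 561 to 735 (median 640) at 14-20 h, against 1188 at 4 h and 1106 and 1014 at 8 h, with every early array above every late one.

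Ribosomes, translation and protein folding were looked at next, and their counts depended on the early arrays. Of 47 genes of ribosome biogenesis, all tested, 0 rose and 4 fell (median -0.05), against 23.8% and 15.6% over all genes. Of 41 cytosolic ribosomal proteins tested 2 rose and 0 fell (median 0.02), of 33 translation factors 4 and 0 (median 0.12), and of 18 tRNA synthetases 4 and 1. Without the first 8 h array the higher genes numbered 9 for ribosome biogenesis, 7 for cytosolic ribosomal proteins, 11 for translation factors and 8 for tRNA synthetases. Without the 4 h array 0 tRNA synthetases were called higher, and without the second 8 h array 1. Of 33 constitutive proteasome subunits 11 rose and 0 fell (median 0.32), a count that was 6 without the 4 h array and 24 without the first 8 h array, and 6 or 7 without any 1 of the arrays at 14, 16 (either) and 18 h. Chaperones (7 of 25 higher, 0 lower), folding enzymes of the endoplasmic reticulum (4 higher and 2 lower of 22) and splicing factors (8 higher and 3 lower of 46) also varied with the arrays used. Higher chaperones numbered 14 without the first 8 h array, 2 without the 4 h array and 0 without the second 8 h array. For folding enzymes these counts were 7, 2 and 2, and for splicing factors 12, 7 and 2, with 3 or 4 splicing factors higher without the array at 18 h, the first at 20 h or either at 16 h. Within the endoplasmic reticulum list, the co-chaperone Sdf2l1 rose by 1.44 ± 0.32 and Dnajb9 fell by 0.86 ± 0.15.

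**Figure D3:**
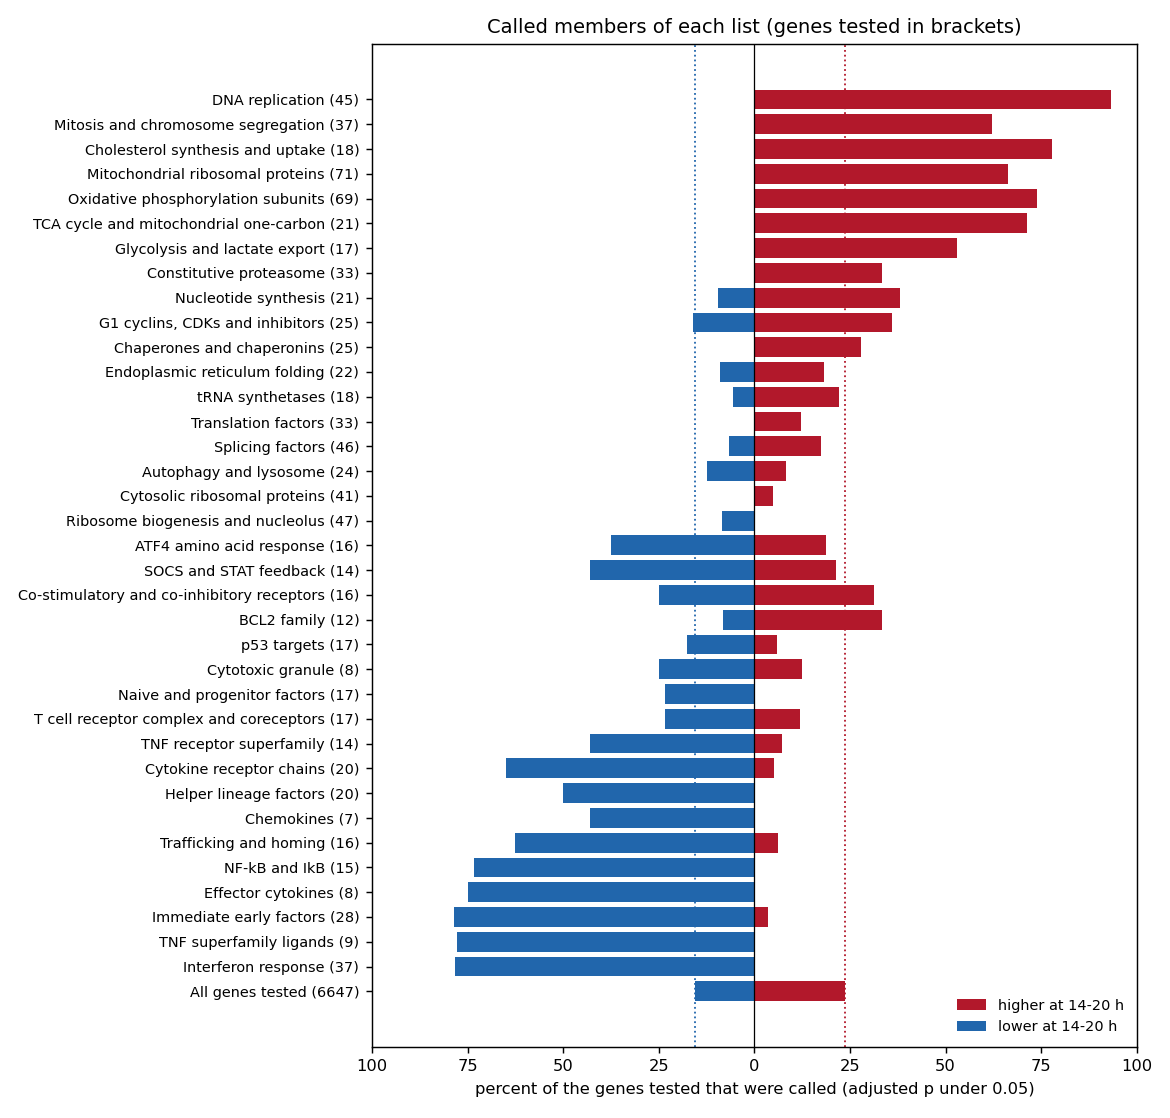
Bars give the percent of the tested genes of each list that were called higher (right, red) or lower (left, blue) at 14-20 h, with the number tested in brackets and dotted lines at the percent over all genes (23.8 higher, 15.6 lower). DNA replication has 93.3% higher, interferon response 78.4% lower, and the cytosolic ribosomal proteins almost no calls.

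Immediate early genes fell. Of 28 tested, of 32 measured, 22 fell (78.6%) and 1 rose (3.57%), against 15.6% and 23.8% over all genes. The median was -1.01, with most of the step before 8 h (-1.24, then -0.71), where the 4 h end is 1 array. Without the 4 h array 15 of 27 were called lower (median -0.72). Without the filter 20 of 32 were, and with neither 16 h array 13 of 28. The orphan receptor Nr4a1 read 772 to 1570 (median 1153) at 14-20 h, against 9987 at 4 h and 4324 and 4212 at 8 h (-2.32 ± 0.29, adjusted p = 0.000696). Fos read 29.6 to 76.6 (median 43.9) at 14-20 h, against 967 at 4 h and 224 and 254 at 8 h (-2.39 ± 0.37, adjusted p = 0.00149). In both the 4 h array was the brightest and the 8 h arrays were close to each other, above all late arrays. Egr1 (-2.05 ± 0.40), the antiproliferative Btg2 (-1.64 ± 0.26), Ier5 (-1.22 ± 0.21) and Ier2 (-0.94 ± 0.17) fell too. Batf, a partner of IRF4 at T cell genes, was the 1 that rose, with 246 to 405 (median 269) at 14-20 h, against 126 at 4 h and 160 and 129 at 8 h (0.90 ± 0.15, adjusted p = 0.00200). Of 15 NF-kB and IkB genes, all tested, 11 fell and 0 rose (median -0.77), among them the subunit Rel (-1.06 ± 0.18), the coactivator Bcl3 (-1.17 ± 0.19), the inhibitor Nfkbia (-0.52 ± 0.11) and the survival gene Birc3 (-1.17 ± 0.24).

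Of 14 feedback regulators of cytokine signals tested (SOCS, CISH, PIM and related genes), 3 rose (21.4%) and 6 fell (42.9%), against 23.8% and 15.6% over all genes. Without the second 8 h array 1 was called higher. Socs1 read 90.2 to 184 (median 136) at 14-20 h, against 982 at 4 h and 282 and 316 at 8 h (-1.51 ± 0.33, adjusted p = 0.00654). Socs3 (-1.31 ± 0.30), Cish (-1.18 ± 0.29), Pim1 (-1.12 ± 0.26) and Pim3 (-0.93 ± 0.13) fell. Pim2, a kinase of the same family as the last 2, ran the other way, with 523 to 1525 (median 998) at 14-20 h, against 564 at 4 h and 209 and 255 at 8 h (1.53 ± 0.34, adjusted p = 0.00654), and its 4 h array lay within the late range.

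Cytokines of the first hours were lower at 14-20 h. Of 18 effector cytokines measured 8 passed the filter, 6 of them fell and 0 rose (median -0.93). Without the filter 9 of the 18 were called lower and 0 higher. Il2, the T cell growth factor, read 3232 to 5575 (median 4571) at 14-20 h, against 9269 at 4 h and 7059 and 8619 at 8 h (-0.90 ± 0.17, adjusted p = 0.00285). Ifng read 44.7 to 144 (median 81.0) at 14-20 h, against 250 at 4 h and 221 and 215 at 8 h (-1.21 ± 0.23, adjusted p = 0.00317). Il3 read 102 to 377 (median 230) at 14-20 h, against 486 at 4 h and 771 and 1584 at 8 h (-1.87 ± 0.40, adjusted p = 0.00587). These 3 were lower in every late array, and Il3 stood highest at 8 h rather than 4 h. Lif (-1.58 ± 0.31), Tgfb1 (-0.96 ± 0.22) and Csf2 (-0.62 ± 0.17) fell, although Csf2 was not called without the second 8 h array (-0.38, adjusted p = 0.0547), while Il13 (-0.19 ± 0.10, adjusted p = 0.146) and Il16 (-0.29 ± 0.30, adjusted p = 0.461) did not pass.

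TNF superfamily ligands, which carry signals to other immune cells, fell in 7 of 9 tested and rose in 0 (median -1.17, 13 measured). Over all genes 15.6% fell and 23.8% rose. Without the filter 6 of the 13 ligands were called lower (median -0.77). Without the 4 h array 5 of 8 were, and without the first 8 h array 5 of 8. Tnf read 318 to 681 (median 537) at 14-20 h, against 4661 at 4 h and 1616 and 2222 at 8 h (-2.25 ± 0.30, adjusted p = 0.000875). Tnfsf14, known as LIGHT, read 153 to 314 (median 187), against 1364 at 4 h and 806 and 852 at 8 h (-2.16 ± 0.21, adjusted p = 0.000411). Neither gene had a late array near its lowest early array. Ltb (-1.73 ± 0.23), Tnfsf9 (-1.38 ± 0.25), Lta (-1.17 ± 0.22), the B cell helper ligand Cd40lg (-1.16 ± 0.26) and Fasl (-0.77 ± 0.28, adjusted p = 0.0495) fell. Fasl moved to -0.42 (adjusted p = 0.198) without the first 8 h array and was not called without the 4 h array or any 1 of 5 late arrays. Tnfsf11, known as RANKL, kept overlapping groups, with 1307 to 2090 (median 1544), against 2402 at 4 h and 1454 and 1181 at 8 h (-0.01 ± 0.20, adjusted p = 0.963), and Tnfsf8 did not pass (-0.52 ± 0.29).

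Among 7 chemokines tested, of 13 measured, 3 fell (42.9%) and 0 rose, against 15.6% and 23.8% over all genes, with a median of -0.51. Without the filter 4 of the 13 were called lower and 0 higher, with a median of -0.19. Cxcl10, an interferon-inducible attractant of T cells, read 16.2 to 29.0 (median 18.4) at 14-20 h, against 424 at 4 h and 137 and 113 at 8 h (-2.08 ± 0.29, adjusted p = 0.000997). Its late arrays were all below the array median, so it passed the filter only on its early arrays. Ccl5 (-1.45 ± 0.22) and Xcl1 (-1.95 ± 0.52) fell. Xcl1 was at its highest at 8 h, with 2955 and 1923, against 1096 at 4 h, and the late arrays ran between 174 and 1171, overlapping the 4 h array. Ccl3 (0.72 ± 0.34, adjusted p = 0.110) and Ccl4 (-0.14 ± 0.31, adjusted p = 0.736) were lowest at 4 h and did not pass.

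Interferon response genes fell together. Of 42 genes measured 37 passed the filter, 29 of them fell and 0 rose, with a median of -1.19. Without the filter 31 of the 42 were called lower (median -1.08). Without any 1 of the early arrays 30 genes passed the filter. Of these, 20 were called lower without the 4 h array and 20 without the second 8 h array. Without the first 8 h array 25 were lower and 1 higher. Both steps were of like size (median -0.95 each). Gbp7, a guanylate-binding GTPase of cell-autonomous defence, read 107 to 359 (median 211) at 14-20 h, against 3892 at 4 h and 961 and 2183 at 8 h (-3.10 ± 0.39, adjusted p = 0.000725). Rtp4, an interferon-induced chaperone of receptors, read 24.8 to 130 (median 52.4), against 1114 at 4 h and 385 and 811 at 8 h (-3.10 ± 0.35, adjusted p = 0.000556). The early arrays of both lay in the order 4 h, second 8 h, first 8 h, all above the late ones. A second probe set of Rtp4 gave -0.12. Ifit3 read 9.70 to 24.4 (median 17.9), against 98.5 at 4 h and 76.5 and 110 at 8 h (-1.35 ± 0.12, adjusted p = 0.000411), and Ifit1 fell by 1.61 ± 0.21. Ifit3 passed the filter only on its early arrays. Gbp2 (-1.64 ± 0.35) and Zbp1 (-1.78 ± 0.22), a sensor of nucleic acid, fell, as did Ifi209 (-2.60 ± 0.34), Gbp8 (-2.63 ± 0.35) and Slfn1 (-2.33 ± 0.29) of interferon-inducible families. The 8 not called lay between -1.03 (Ifitm3) and 0.52 (Bst2).

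Il7r, the receptor for the survival cytokine IL-7, had the largest fall of all called genes, with 67.7 to 289 (median 164) at 14-20 h, against 3699 at 4 h and 728 and 3143 at 8 h (-3.43 ± 0.49, adjusted p = 0.00116). Klf2, a factor of quiescence and homing, read 53.8 to 207 (median 140), against 1827 at 4 h and 471 and 1249 at 8 h (-2.84 ± 0.40, adjusted p = 0.00114). Its target S1pr1, which guides exit from lymph nodes, read 18.8 to 33.0 (median 26.8), against 357 at 4 h and 72.1 and 286 at 8 h (-2.01 ± 0.32, adjusted p = 0.00174). For all 3, the first 8 h array was the lowest of the early arrays, and no late array reached any of them.

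Of 20 cytokine receptor chains tested, of 29 measured, 13 fell (65%) and 1 rose (5%), against 15.6% and 23.8% over all genes. Of 16 trafficking genes tested, of 24 measured, 10 fell (62.5%) and 1 rose (6.25%). In 2 of these 16 the late arrays lay wholly below the early ones. Without the filter on dim genes 11 of the 29 chains and 7 of the 24 trafficking genes were called lower. Without the 4 h array 7 receptor chains and 2 trafficking genes were called lower, and without the second 8 h array 3 trafficking genes. Without the second 16 h, the 18 h or the second 20 h array 6, 5 and 6 trafficking genes were. Ifngr1 of the interferon-gamma receptor (-1.92 ± 0.33), Tgfbr2 (-0.94 ± 0.20) and Il17ra (-0.89 ± 0.22) fell. Il12rb1, a chain of the receptors for IL-12 and IL-23, was the exception that rose, with 185 to 412 (median 243) at 14-20 h, against 32.005 at 4 h and 86.3 and 38.2 at 8 h (1.87 ± 0.26, adjusted p = 0.000930). The chain for IL-27, Il27ra, read 246 to 345 (median 293), against 382 at 4 h and 279 and 384 at 8 h, and its groups overlapped (-0.23 ± 0.13, adjusted p = 0.195). Among homing receptors Ccr7 rose, with 2261 to 4203 (median 3041) against 958 at 4 h and 2198 and 1388 at 8 h (1.07 ± 0.23, adjusted p = 0.00640), and Cxcr4 fell by 1.01 ± 0.28.

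Other naive and progenitor factors mostly did not pass. Of 17 tested 4 fell (23.5%) and 0 rose, against 15.6% and 23.8% over all genes. The 4 were Klf2, Sox4 (-1.58 ± 0.22), Klf3 (-1.12 ± 0.32) and Zeb1 (-0.84 ± 0.25). Without the first 8 h array 7 were called lower, and without the 4 h array 3 lower and 2 higher. Klf3 was not called without the 4 h array (-0.71) or the second 8 h array (-0.99). The 13 others lay between -0.86 ± 0.32 (Satb1, adjusted p = 0.0553) and 0.31 ± 0.17 (Id3, adjusted p = 0.170). Of 20 helper lineage factors tested 10 fell (50%) and 0 rose, against the same 15.6% and 23.8% over all genes (median -0.51). Without the 4 h array 5 were called lower, with neither 16 h array 4 and with neither 20 h array 6. Without the filter 8 of 27 were called lower (median -0.28). Runx1 read 259 to 397 (median 341), against 1180 at 4 h and 820 and 808 at 8 h (-1.38 ± 0.16, adjusted p = 0.000547), with no overlap. Rora (-1.49 ± 0.28), Bcl6 (-1.44 ± 0.28), Gata3 (-0.60 ± 0.16) and Stat6 (-0.63 ± 0.16) fell, and without the 4 h array Gata3 was not called (-0.37, adjusted p = 0.0553). Tbx21, the type 1 helper factor T-bet, read 91.3 to 556 (median 207) at 14-20 h, against 622 at 4 h and 163 and 121 at 8 h, and was not called (-0.01 ± 0.53, adjusted p = 0.987). Irf4 (-0.29 ± 0.17), Irf8 (-0.54 ± 0.37), Ahr (0.35 ± 0.17) and Stat3 (-0.71 ± 0.36) did not pass either.

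Of 16 co-stimulatory and co-inhibitory receptors and ligands tested, of 21 measured, 5 rose (31.2%) and 4 fell (25%), against 23.8% and 15.6% over all genes. Lag3, an inhibitory relative of CD4, read 108 to 211 (median 172) at 14-20 h, against 11.2 at 4 h and 28.1 and 19.0 at 8 h (1.94 ± 0.18, adjusted p = 0.000411). Ctla4, the inhibitory competitor of CD28, read 134 to 560 (median 291), against 57.1 at 4 h and 67.0 and 31.9 at 8 h (1.98 ± 0.31, adjusted p = 0.00167). Cd28 itself read 794 to 1675 (median 1234), against 699 at 4 h and 474 and 398 at 8 h (1.21 ± 0.22, adjusted p = 0.00299). All late arrays of the 3 genes lay above the early ones. Cd200 (0.81 ± 0.24) and Pdcd1lg2 (0.74 ± 0.19) rose, and Slamf1 (-1.58 ± 0.30), Cd274 (-1.35 ± 0.27), Cd160 (-0.72 ± 0.18) and Pdcd1 (-0.45 ± 0.17, adjusted p = 0.0492) fell. Pdcd1 was not called without either the 4 h array (-0.39) or the first 8 h array (-0.38), nor without any 1 of 5 late arrays. Of 17 receptor complex and proximal signalling genes 2 rose (11.8%) and 4 fell (23.5%), against 23.8% and 15.6% over all genes. Cd28 and Cd4 (0.48 ± 0.14) rose, and Lcp2 (-1.30 ± 0.26), Fyn (-0.77 ± 0.17), Lat (-0.48 ± 0.12) and Ptprc (-0.44 ± 0.13) fell.

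**Figure D4:**
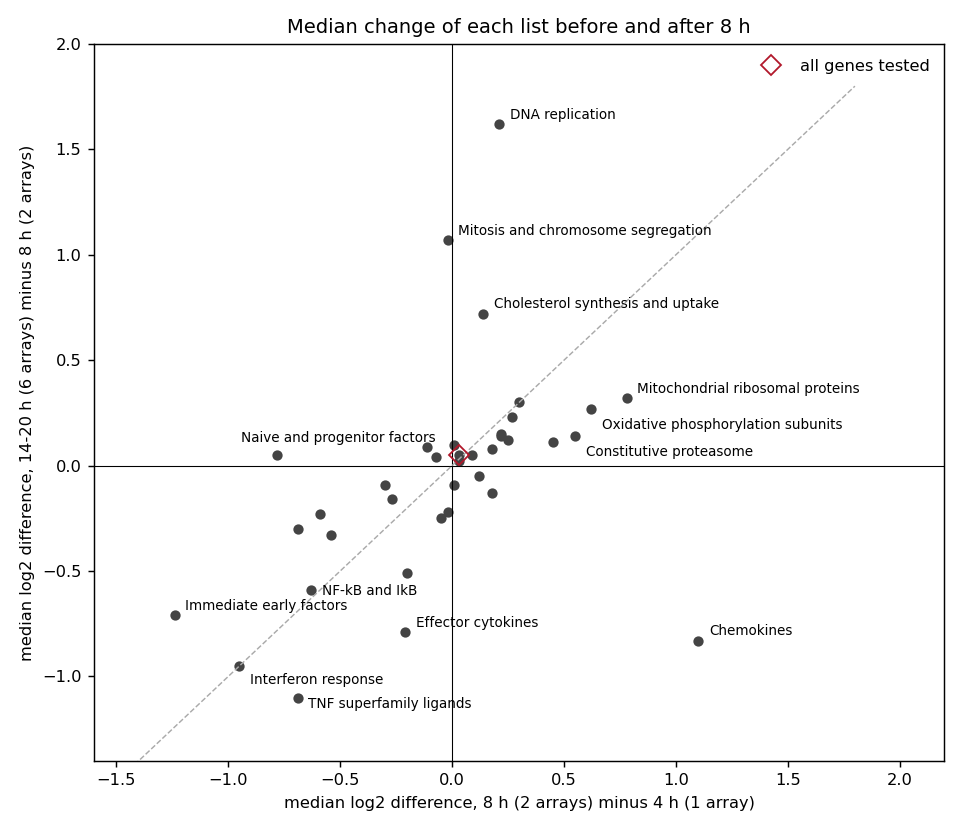
Each dot is the median log2 difference of a gene list, with the step between 4 h (1 array) and 8 h (2 arrays) on the horizontal axis and the step between 8 h and 14-20 h (6 arrays) on the vertical axis; the open diamond marks all genes tested and the dashed line equal steps. Replication (0.21, 1.62), mitosis (-0.02, 1.07) and cholesterol lists stepped after 8 h, mitochondrial ribosomal proteins (0.78, 0.32) and respiratory subunits (0.62, 0.27) more before it, and chemokines rose and fell (1.10, -0.83).

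Markers of other cells were looked at beside these results, and their part in them was not tested. In whole-culture RNA, fewer cells of a type and less of its RNA per cell cannot be told apart. The T cell receptor list summed to 25365 to 30356 at 14-20 h, against 30318 to 45415 at 4-8 h. All 5 tested MHC class II genes fell, H2-Aa (-1.70 ± 0.25) and Cd74 (-1.11 ± 0.14) among them, and the list of 6 measured genes summed to 207 to 330, against 648 to 1175. Of 16 myeloid and dendritic markers 13 were below the array median on all 9 arrays, Lyz2 and Itgax among them, and the sum was 217 to 228, against 263 to 329. Of 11 B cell markers 7 were below it on all 9, and the list summed to 1174 to 2172, against 977 to 1438, mostly Ighm (967 to 1981, against 731 to 1009). MHC class II genes fell between the same arrays as the interferon list, as did every gene called lower, and a link was not tested. The 2 CD8 markers summed to 136 to 158, against 117 to 133, and 4 of 5 NK cell markers were below the median on all 9. The 9 markers of regulatory T cells summed to 3104 to 3628, against 2978 to 3645, and 5 erythroid and platelet markers to 77.0 to 89.0, against 134 to 210. Within that last sum Car2 alone read 24.1 to 32.1, against 80.3 to 154, and the other 4 were below the median on all 9 arrays.

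The change was then set beside that of the IL27 arm, which has arrays of the same 9 titles. Of the 2617 genes called in the control arm, 2603 had the same sign of change there, and 477 of the 478 that changed by 2-fold or more. In a fit over the 18 arrays, the change in the IL27 arm differed from that in the control arm for 2 of 6795 genes (0.0294%), and 208 had an unadjusted p under 0.05. Arrays with the same title deviated together from their group means (correlations of 0.41 to 0.871 over the 9 pairs, each above that with any other control array). With the pairs as a block, a fit chosen after the data had been seen, 156 genes were called (2.30%), 61 with the IL27 change above the control change (0.898%) and 95 below it (1.40%), and both genes of the unpaired fit were among them. The unpaired count was 0 without the second 8 h control array and 22 without the first. Of these 156 genes 92 were called in the control arm.

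Tmem35a, a chaperone of acetylcholine receptors, read 204 to 422 at 14-20 h, against 21.8 at 4 h and 78.6 and 48.8 at 8 h, in the IL27 arm, and 8.74 to 23.6 against 12.3, 10.7 and 9.66 in the control arm (difference of changes 2.03 ± 0.29, adjusted p = 0.0100). Cd8b1, a CD8 chain, averaged 62.0 against 112 in the IL27 arm and 135 against 111 in the control arm (-0.85 ± 0.14, adjusted p = 0.0394). In the paired fit, 8 of 38 interferon genes had a change in the IL27 arm above that of the control arm, and 3 had it below. Iigp1 averaged 2577 at 14-20 h against 2208 at 4-8 h with IL-27, and 429 against 1520 without it (2.02 ± 0.27, adjusted p = 0.00152). Gbp2 averaged 5184 against 5624 with IL-27, and 1312 against 4193 without it (1.59 ± 0.26, adjusted p = 0.00523). Both genes had a lower mean at 14-20 h in control cells, by far more than any difference in the IL27 arm. Ctla4 averaged 89.1 against 82.7 with IL-27, and 317 against 52.01 without it (-1.90 ± 0.19, adjusted p = 0.000194). Tnfsf11 averaged 253 against 870 with IL-27, and 1606 against 1679 without it (-1.53 ± 0.18, adjusted p = 0.000388). Of the replication and mitosis lists 1 gene each was called, both with the smaller rise in the IL27 arm, and of 47 ribosome biogenesis genes 0.

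**Figure D5:**
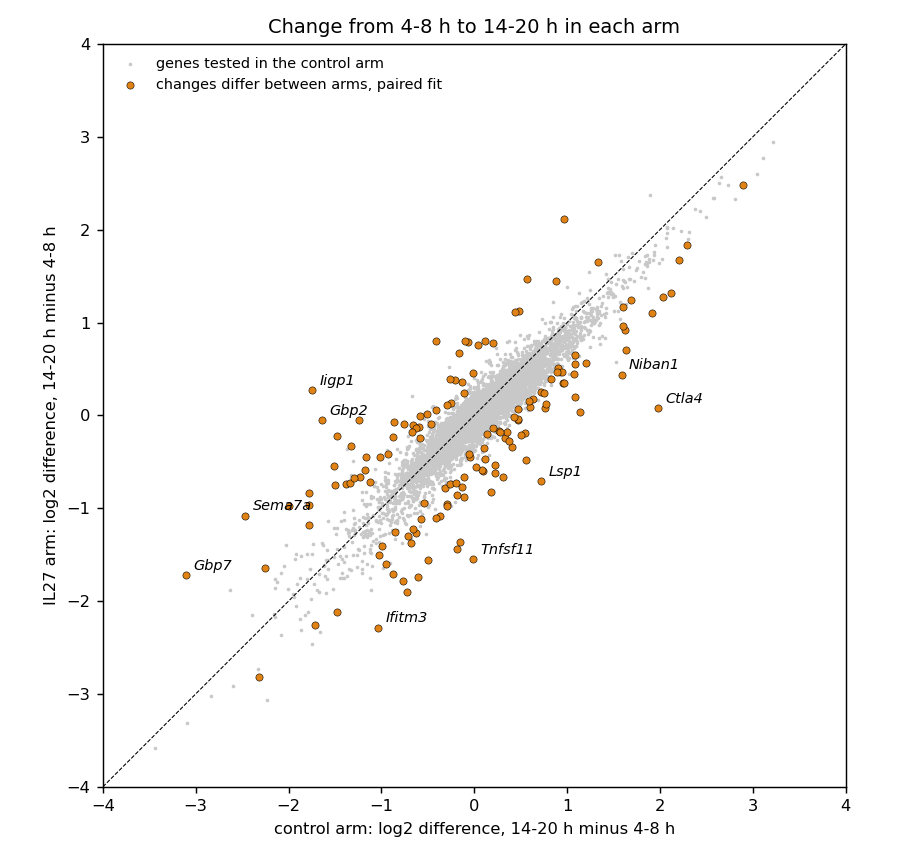
Log2 difference, 14-20 h minus 4-8 h, of each gene in the IL27 arm (vertical) and the control arm (horizontal), with equal change on the dashed line. Orange points are genes tested in the control arm whose changes differed in the paired fit (156 called over all 6795 genes of that fit); Gbp2 and Iigp1 lie far above the line and Ctla4 and Tnfsf11 far below it.

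The 2 Mouse430A_2 arrays of control cells at 16 h and 4 h gave a further look at the same interval, with 1 array each and no test. The tables of the array types were scaled apart, so only differences within a type were taken, here on log2(intensity + 75). Of 6655 genes above the median of either array, 471 were higher by 2-fold or more at 16 h (7.08%) and 502 lower (7.54%). Of the 2617 genes called, 2462 had the same sign there, and of the 478 with a 2-fold difference 467. Past 2-fold in the same direction were 218 of the 268 higher and 145 of the 210 lower genes. Rrm2 read 1516 at 16 h against 84.5 at 4 h, Cdk1 812 against 95.1, Il7r 73.9 against 435, and Cxcl10 24.9 against 792. Cks2 ran the other way, with 4414 against 6112, and Hmgcs1 read 4654 against 5071. List medians there were smaller for the interferon response (-0.47, against -1.19), cholesterol (0.32, against 0.72) and trafficking (-0.1, against -0.59). The median of the replication list was close (1.69, against 1.72), and that of the immediate early factors was larger (-1.66, against -1.01).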

How the data were processed

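Gene expression was measured on Affymetrix arrays of cultured mouse CD4 T cells. The deposited tables hold 1 intensity per probe set and array on a linear scale, made by the authors with MAS5, per the submitters' processing notes; the scaling target is not given in those notes. Of 22626 probe sets, 20173 carried 1 gene symbol in the platform annotation, 942 several and 1511 none, and the brightest probe set stood for each of 12291 genes. A gene was tested when it lay above the array median on at least 3 of the arrays fitted. log2(intensity + 32) was fitted with limma 3.58.1 (eBayes with trend) in R 4.3.3, Benjamini-Hochberg over all genes tested, threshold 0.05; the fit was tested on simulated data. The number of arrays limits the precision.

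The comparison, its members and the lists were chosen with earlier results of these data known. Genes were named by a rule: the 12 largest differences each way with groups apart, up to 6 called genes of each list taken by lowest adjusted p, members of 7 short lists and the markers, and the 8 largest each way in the other tests. Bst2, Egr1, Gbp2, Hk2, Ifitm3, Iigp1, Il27ra, Orc2, Pcna, Pold2, Sqle and Srebf2 were named after their values were seen, and not every member the rule allows is printed. IL27 and control arrays of the same title correlated in their deviations from the group means (0.41 to 0.871 over 9 pairs), so the pairs were also fitted as a block. Alternatives were other pseudocounts, filters, probe set rules and normalizations, blocks, and arrays or times left out.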

Additional observations from a re-analysis of the deposited data

Results flagged for a closer look

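Of 170 genes named and looked at, 9 had 1 array of the 6 at 14-20 h whose gap to the nearest other exceeded Dixon's critical share of the range; chance gives such a gap in about 1 of 20 groups. At 14 h, Tnfsf14 read 314, with the next array at 197, Ndufb10 read 797, with the next at 939, and Psph read 404, with the next at 508. The second 20 h array was highest for Satb1 (2012, next 1441) and Srebf2 (640, next 522), and the first 20 h array for Batf (405, next 275). Ccl5 read 74.0 on the second 16 h array (next 47.8), Cxcr4 22.8 on the first 16 h array (next 21.0) and Itgax 18.0 at 18 h (next 14.8), all dim values.

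For Tmem35a and Cd8b1 the change between 4-8 h and 14-20 h differed between the arms, by 2.03 and -0.85 as IL27 change minus control change, in limma without pairing. Neither was called with a pseudocount of 1, without suffix d arrays or without the second 8 h control array. Cd8b1 was also not called without the filter, with quantile normalization or without the 4 h array of either arm, among other settings.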

How the results depend on the processing

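For the control comparison, 2617 genes were called. Leaving out 1 array in turn gave 1907 to 3226, the arrays of suffix d 97, and both 16 h arrays 1229. The replicate block for the suffix gave 2413, and the remaining settings lay within 1.5 times of 2617. Of 143 called genes named here, 121 lost the call under at least 1 setting, mostly the fit without suffix d arrays. The other 22 kept it under every setting in which they were tested. Without suffix d arrays 137 of the 143 passed the filter, and 120 of these lost the call. Of 24 genes not called, 20 gained a call under at least 1 setting. Among genes not called, the sign turned for Ccl4 (0.21 without suffix d arrays, 0.15 with the mean of single times, 0.82 without 8 h), Sqle (-0.038 without 8 h) and Tbx21 (0.34 without 16 h). Without 1 array in turn the values spanned 0, from -0.62 to 0.15 for Ccl4, -0.034 to 0.38 for Cdk4, -0.18 to 0.51 for Hk2, -0.42 to 0.63 for Tbx21 and -0.23 to 0.27 for Tnfsf11. For the difference between arms, the 2 calls became 0 with a pseudocount of 1 or without suffix d arrays, 1 with no filter, 3 with the filter on the mean or quantile normalization, 5 with a pseudocount of 100, 6 with the mean of all probe sets, 0 to 22 without 1 array, 2 with the replicate block for the suffix and 156 with the replicate block for the shared title. On Mouse430A_2, 973 genes past 2-fold became 1266 with a pseudocount of 32 and 712 with 150. The cause of these moves was not tested. Early arrays are few, the 4 h point is 1 array, and dim genes are limited by background.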
